A study of Mus musculus with 12 samples.

Results

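The genes described here are 34 mouse nuclear receptors other than Pparg, taken from a list of gene names and followed across 3 kinds of cultured adipocytes and fat tissue. Each was read from an array probe set that carries a single gene symbol, and each measured receptor had 1 such probe set. Of the 34, 33 were measured, among 19938 genes in all. Nr1h2, one of the LXR genes, had no single-symbol probe set in the annotation used and was not analysed here. Total mouse RNA had been hybridised to 12 Affymetrix arrays, with biological triplicates for each of 4 groups. The groups were adipocytes made from 3T3-L1 cells, an immortal fibroblast line that was isolated as a clone, adipocytes made from primary mouse embryonic fibroblasts (PMEF), adipocytes made from mouse embryonic stem (ES) cells, and eWAT (by common usage, epididymal white adipose tissue), taken from wild-type mice described as healthy. No transgene, deletion or drug is named for any group, and no source used here gives the differentiation hormones, culture days, strain or age. The origin of the cells and the way they were grown cannot be told apart, and the cultures and the tissue also differ in the cell types they hold.

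Nuclear receptors are transcription factors that bind DNA through zinc fingers, and many of them are switched by small lipophilic ligands such as steroid hormones, thyroid hormone, retinoids, oxysterols and fatty acids. Many pair with a retinoid X receptor (RXR) on DNA, and they act by exchanging corepressors for coactivators. In fat, Pparg is the receptor that drives adipocyte formation, and glucocorticoid, thyroid hormone, oestrogen and clock receptors shape how the formed cell handles lipid and hormones. Others, the orphan receptors, work without an established hormone and are set mainly by how much of them a cell makes.

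Values are log2 intensities as deposited, so a difference of 1 is a 2-fold change, and a gene is called changed where limma's Benjamini-Hochberg adjusted p over all 19938 genes was under 0.05. Rose and fell are used of called differences alone. Levels of different probe sets are not compared. A group mean at or below 5.17, the 95th percentile of 1027 olfactory receptor genes over the arrays, is described as dim, and the size of a difference that ends there is rough. Array medians over all genes were 6.11 to 6.12 in 3T3-L1 and 6.31 to 6.35 elsewhere, and arrays within a group correlated at 0.992 to 0.997 across genes. The 7 adipocyte markers were above the dim level in every group, except Lep in 3T3-L1. Their mean per array ran from 11.69 to 11.94 in eWAT and from 11.17 to 11.18 in ES adipocytes. It was 10.61 to 10.68 in PMEF and 10.02 to 10.08 in 3T3-L1. Against eWAT, 5 of the 7 were lower in 3T3-L1 (list median -1.12) and 6 in PMEF (-0.76). In ES adipocytes 4 were lower and 1 higher (-0.23). No undifferentiated cells were measured to set these levels against. The part of adipocyte content in the receptor differences was not tested. Endothelial, macrophage and lymphocyte markers were for the most part higher in tissue. Fibroblast and mesothelial markers were highest in PMEF, and neural markers in ES. For 5 fibroblast markers the mean was 11.77 to 11.83 in PMEF and 9.92 to 10.08 in eWAT. It was 9.78 to 9.88 in ES and 8.15 to 8.21 in 3T3-L1. For 3 smooth muscle markers it was 8.48 to 8.78 in PMEF and 8.46 to 8.52 in eWAT. In ES it was 7.5 to 7.6 and in 3T3-L1 6.45 to 6.59. The mean of 6 endothelial markers was 9.42 to 9.82 in eWAT and 5.06 to 5.47 in the cultures, where 3 of the 6 were dim in each. The mean of 6 macrophage markers was 9.54 to 10.53 in eWAT, 6.21 to 6.44 in PMEF, with 1 dim, and 5.24 to 5.72 in 3T3-L1 and ES cultures, with 4 dim in each, but 1 of the 6, Cd68, was higher in 3T3-L1 (10.42) than in eWAT (9.49), with 8.66 in ES. The mean of 3 lymphocyte markers was 7.39 to 7.73 in eWAT against 4.86 to 5.18 in the cultures. Among the eWAT arrays, array 1 held the lowest macrophage signal, for instance 8.78 for Adgre1 against 9.73 and 10.24. Array 2 held the highest Fosb, an immediate early gene chosen after its values were seen, at 9.02 against 6.20 and 6.41.

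Of the 33 receptors, 23 were above the dim level in all 4 groups, 5 were dim in all of them (Nr1h4, Nr1i3, Esr2, Nr0b1 and Nr0b2) and 5 were dim in some. The highest mean of a receptor lay in eWAT for 14 of them, in 3T3-L1 for 10, in PMEF for 7 and in ES adipocytes for 2. For all genes the corresponding shares were 23.5%, 30.4%, 27% and 19%. Against eWAT, 25 of the 33 were called in 3T3-L1 adipocytes, 12 higher and 13 lower, where 53.3% of all genes were called, 30.8% higher and 22.5% lower. In PMEF adipocytes 23 were called, 10 higher and 13 lower, with 46.3% of all genes called, 24.7% higher and 21.6% lower. In ES adipocytes 19 were called, 8 higher and 11 lower, with 49.7% of all genes called, 28.8% higher and 20.9% lower. These 3 comparisons share the eWAT arrays and are not independent of each other.

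Differences of at least 2-fold were found for 6 receptors in 3T3-L1 adipocytes (14.5% of all genes), for 7 in PMEF adipocytes (10.4%) and for 6 in ES adipocytes (10.2%). Esr1, Nr1d1 and Nr4a3 were among them in each culture, joined by Thrb, Rxrg and Nr2f6 in 3T3-L1, by Rxrg, Nr3c2, Nr4a1 and Pgr in PMEF, and by Nr4a2, Nr2f1 and Pgr in ES. In size, the median absolute difference of the receptors was 0.44 for 3T3-L1, 0.29 for PMEF and 0.28 for ES adipocytes, against 0.27, 0.22 and 0.24 over all genes. Esr1, Nr1d1 and Nr4a3 were at least 2-fold higher in eWAT than in each culture, a pattern that 3.57% of all genes met and that Nr4a3 did not meet without eWAT array 2 or 3. Thrb and Esr1 were at least 2-fold lower in 3T3-L1 than in each other group, a pattern that 2.63% of all genes met. Centring each array on its median moved the 3T3-L1 comparison by 0.21 over all genes and the split of the receptors to 18 higher and 11 lower, with 77.1% of all calls higher in place of 57.8%.

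**Figure D1:**
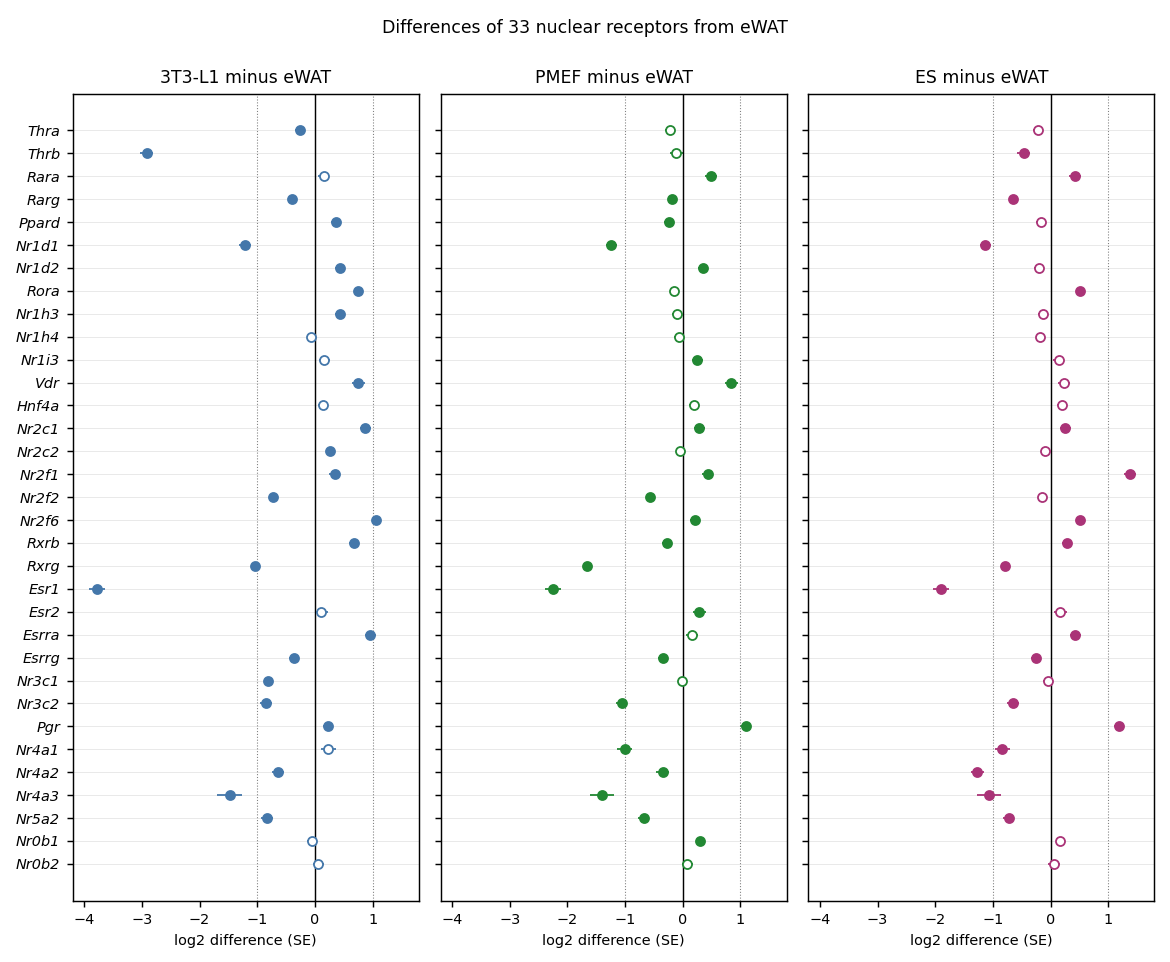
Log2 difference of each of the 33 measured receptors from eWAT (x axis, log2 units) in 3T3-L1, PMEF and ES adipocytes, with the standard error as a bar (n = 3 arrays per group), filled where called and open where not; dotted lines mark 2-fold. Esr1 stands farthest to the left in each panel, at -3.78, -2.25 and -1.90, and Thrb is far to the left in the 3T3-L1 panel alone, at -2.92.

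Among the steroid hormone receptors, the oestrogen receptor gene Esr1 was high in tissue and low in all 3 cultures, while the progesterone receptor gene Pgr was higher in PMEF and ES adipocytes than in tissue. Esr1, whose receptor restrains fat storage in both sexes, was at 8.92, 9.33 and 9.54 in eWAT, at 7.34, 7.44 and 7.31 in ES and at 6.91, 7.04 and 7.10 in PMEF cultures. The 3T3-L1 arrays were the lowest, at 5.30, 5.48 and 5.67. No group overlapped another, but the step from ES to PMEF was not called (0.35 ± 0.14, SE, adjusted p = 0.0536). It was called under 11 of the alternatives tried, for instance with only the arrays of those 2 groups (adjusted p = 0.00536) or the replicate block (adjusted p = 0.02). Against eWAT, Esr1 was 13.8-fold lower in 3T3-L1 (-3.78 ± 0.14, adjusted p = 4.03e-11), 4.75-fold lower in PMEF (-2.25, adjusted p = 1.15e-08) and 3.73-fold lower in ES adipocytes (-1.90, adjusted p = 6.99e-08). In bulk RNA, fewer cells of a type and less RNA per cell cannot be told apart, and the endothelial, macrophage and lymphocyte markers given above also set eWAT apart from the cultures, as they did for each receptor that was higher in tissue; their part in these differences was not tested. Without eWAT array 1, which had the least macrophage signal and the lowest Esr1 of the tissue arrays, the 3T3-L1 difference was -3.95, and leaving out each array in turn gave -3.95 to -3.64. Esr2, the second oestrogen receptor, was dim in every group, with means from 4.72 to 5.01.

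Pgr was dim in eWAT, at 4.71, 4.98 and 4.98, and in 3T3-L1, at 5.23, 5.12 and 4.99. Its PMEF arrays lay between 5.91 and 6.02, and it was at 6.06, 6.17 and 6.03 in ES adipocytes. PMEF and ES arrays thus lay above all tissue and 3T3-L1 arrays, by 1.09 ± 0.09 in PMEF (adjusted p = 2.68e-07) and by 1.19 ± 0.09 in ES (adjusted p = 1.16e-07) over eWAT. In these same groups the mean of 6 mesothelial markers was high, at 7.81 to 7.95 in PMEF and 7.14 to 7.25 in ES, with none dim, against 5.27 to 5.33 in 3T3-L1 and 5.33 to 5.60 in eWAT; their part in the Pgr difference was not tested. The small excess of Pgr in 3T3-L1 over eWAT, 0.23 (adjusted p = 0.0487), joined 2 dim groups and was lost under several settings, for example without eWAT array 1 (0.14, adjusted p = 0.203).

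Nr3c1, the glucocorticoid receptor, whose ligands promote adipocyte formation in culture, was low in 3T3-L1 adipocytes alone. It was at 8.36, 8.29 and 8.35 in 3T3-L1, at 9.15, 9.14 and 9.11 in PMEF, at 9.11, 9.04 and 9.12 in ES and at 9.30, 9.02 and 9.10 in eWAT. Every 3T3-L1 array lay below every other array, and the 3T3-L1 mean was 1.75-fold below eWAT (-0.81 ± 0.076, adjusted p = 6.91e-07), while PMEF and ES adipocytes differed from eWAT by -0.01 and -0.05, within the standard error. Nr3c2, the mineralocorticoid receptor, which binds the same glucocorticoids and aldosterone, showed another order. Its values were 6.78, 6.58 and 6.64 in eWAT, 5.96, 6.02 and 6.06 in ES, 5.61, 6.04 and 5.79 in 3T3-L1 and 5.68, 5.64 and 5.49 in PMEF. All tissue arrays were above all culture arrays, with differences of -0.65 in ES, -0.85 in 3T3-L1 and -1.06 in PMEF adipocytes, each called.

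The genes around the glucocorticoid receptor were given by a ligand list and by 9 target genes. Hsd11b1, the enzyme that regenerates active glucocorticoid from its inert keto form inside fat cells, was at 10.91, 10.85 and 10.68 in eWAT. In 3T3-L1 adipocytes it was at 9.98, 10.02 and 9.90. It was far lower in ES adipocytes, at 7.13, 7.25 and 7.14, and in PMEF, at 5.87, 5.93 and 5.75, which is 31.3-fold below tissue (-4.97 ± 0.08, adjusted p = 6.69e-14). The culture with the low receptor thus had the enzyme nearest to tissue, and the 2 cultures in which the receptor was not called had far less of it. Of the 9 target genes, 7 were higher and 1 lower in 3T3-L1 than in eWAT, with a list median of 0.61, against 3 lower in PMEF (median -0.30) and 2 higher and 5 lower in ES adipocytes (median -0.53).

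Within that list Fkbp5, a chaperone partner of the receptor, rose by 1.19 ± 0.28 in 3T3-L1 (adjusted p = 0.0024), and the metallothionein gene Mt1 rose by 1.36 in 3T3-L1 and by 1.28 in ES. Zbtb16, a zinc finger factor strongly induced by glucocorticoid, fell in all 3, by 1.51, 1.89 and 2.04 in 3T3-L1, PMEF and ES. The tissue arrays were uneven for these genes, at 6.46, 7.71 and 8.04 for Fkbp5 and at 9.97, 10.73 and 10.96 for Zbtb16, and array 1 was the lowest tissue array for 8 of the 9 targets, all but Dusp1. Without it the Fkbp5 rise in 3T3-L1 was 0.72, and the list counts were 7 higher and 1 lower in 3T3-L1 (median 0.47), 5 lower in PMEF (median -0.45) and 2 higher and 7 lower in ES adipocytes (median -0.52). Whether the culture media held glucocorticoid at harvest is not stated in any source used here.

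**Figure D2:**
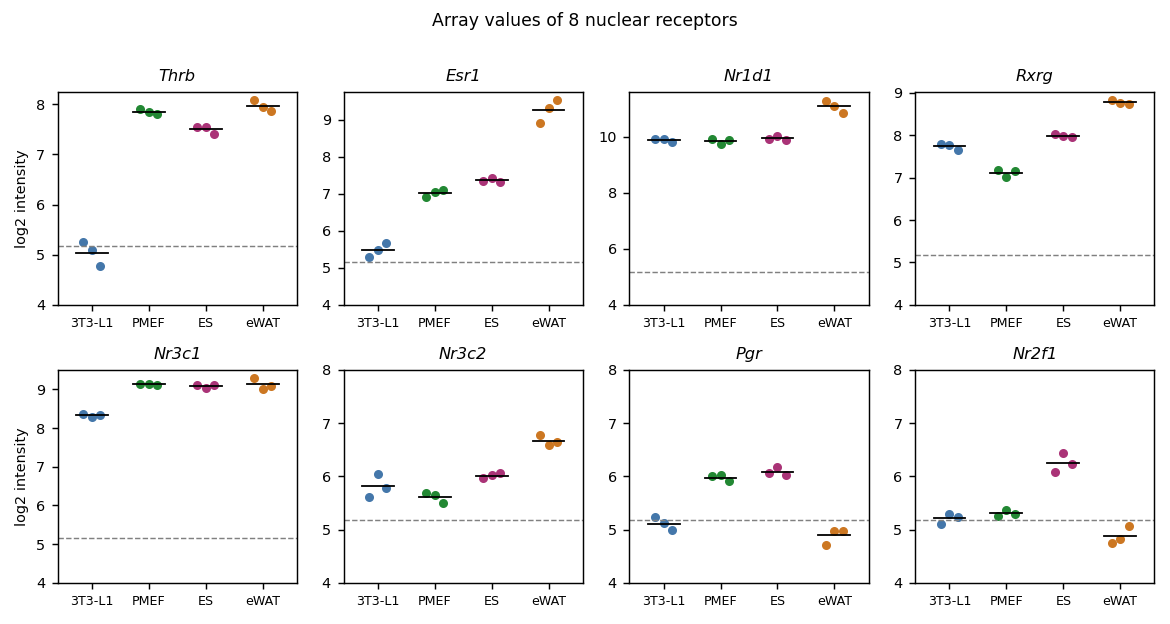
Log2 intensity (y axis) of Thrb, Esr1, Nr1d1, Rxrg, Nr3c1, Nr3c2, Pgr and Nr2f1 in each of the 12 arrays by group, with the group mean as a line (n = 3) and the dim level of 5.17 as a dashed line. The 3T3-L1 arrays of Thrb lie at 4.77 to 5.25 against 7.41 or more in the other groups, and the eWAT arrays of Esr1, Nr1d1, Rxrg and Nr3c2 lie above all culture arrays.

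The thyroid hormone receptors parted from each other. Thra, the form made in most tissues, was close to level, with means from 8.92 to 9.18, while Thrb, the form that dominates in liver, was dim in 1 culture. Thrb was at 8.08, 7.95 and 7.86 in eWAT, at 7.90, 7.85 and 7.80 in PMEF and at 7.54, 7.55 and 7.41 in ES, but at 5.25, 5.10 and 4.77 in 3T3-L1. The 3T3-L1 arrays were dim on average, 7.59-fold below eWAT (-2.92 ± 0.11, adjusted p = 5.06e-11), and 7.01-fold and 5.49-fold below PMEF and ES adipocytes. PMEF arrays overlapped the tissue arrays (-0.11, adjusted p = 0.414), and ES arrays were lower by a smaller step (-0.47, adjusted p = 0.00241). No setting or left-out array moved the 3T3-L1 value outside -3.03 to -2.71.

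For Thra, the 3T3-L1 difference from eWAT of -0.26 was called (adjusted p = 0.0265), but with arrays centred on their medians it was -0.05 (adjusted p = 0.658). It was also lost without 3T3-L1 array 2 or eWAT array 2. PMEF and ES adipocytes were each at -0.22, not called (adjusted p = 0.064 and 0.0559). Both were called under several settings, for instance quantile normalization (-0.24 and -0.3, adjusted p = 0.0416 and 0.0153). Thra and Nr1d1 overlap at their 3′ ends on opposite strands, and no source used here gives the strand of the probes. Of 6 thyroid hormone target genes, 4 were lower and 1 higher in 3T3-L1, 3 were lower in PMEF and 3 in ES adipocytes, with list medians of -1.13, -0.55 and -0.45. Thrsp, the lipogenic thyroid hormone responsive gene, fell by 2.49 in 3T3-L1 and by 2.38 in ES, and by 0.84 in PMEF. The uncoupling protein gene Ucp1 fell by 3.87 ± 0.47 in 3T3-L1 and by 1.69 in PMEF, but its tissue arrays ranged from 7.45 to 10.05. Without eWAT array 1 these differences were -3.10 and -0.92, both still called.

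The retinoid receptors include the retinoic acid receptors (RAR) and the RXR partners. Rxrg, the RXR gene with the narrowest tissue range, was highest in eWAT, at 8.84, 8.76 and 8.73, then in ES, at 8.02, 7.99 and 7.96, then in 3T3-L1, at 7.79, 7.77 and 7.66, and lowest in PMEF, at 7.17, 7.01 and 7.16. No group overlapped another, and each of the 6 differences between groups was called. Against eWAT, Rxrg was 3.16-fold lower in PMEF (-1.66 ± 0.071, adjusted p = 3.78e-10), 2.05-fold lower in 3T3-L1 and 1.72-fold lower in ES adipocytes. The step between ES and 3T3-L1, 0.25, was not called with arrays centred on their medians (0.05, adjusted p = 0.566).

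Rxrb, the RXR gene made in most cells, had the reverse place for 3T3-L1. It was at 8.22, 7.98 and 8.14 in 3T3-L1, at 7.84, 7.59 and 7.70 in ES, at 7.45, 7.44 and 7.41 in eWAT and at 7.19, 7.24 and 7.06 in PMEF. Thus 3T3-L1 and ES adipocytes were above tissue, by 0.68 and 0.28, and PMEF below it, by -0.27 (adjusted p = 0.0181). The PMEF call was lost without PMEF array 3 (-0.22, adjusted p = 0.0766), and the ES call without ES array 1 (0.22, adjusted p = 0.0727). Rxra, the main RXR of fat and not one of the 33, was lower than tissue in each culture, with differences of -0.52 for 3T3-L1, -0.43 for PMEF and -0.66 for ES.

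Rara rose in PMEF by 0.49 and in ES by 0.42, and in 3T3-L1 it was at 0.15 (adjusted p = 0.24), or 0.36 with arrays centred on their medians (adjusted p = 0.00696). Rarg was at 7.73 in all 3 eWAT arrays and lower elsewhere, by 0.65 in ES (7.01 to 7.11), by 0.40 in 3T3-L1 (7.28 to 7.41) and by 0.19 in PMEF (7.53 to 7.55). The PMEF call was lost without PMEF array 2 (adjusted p = 0.0677), without eWAT array 3 (adjusted p = 0.056) and where PMEF and eWAT were fitted alone (adjusted p = 0.0845). Its excess in PMEF over 3T3-L1, 0.21 (adjusted p = 0.0114), became -0.01 (adjusted p = 0.947) with arrays centred on their medians. Rarb, both a receptor and a retinoic acid target, and no member of the 33, was at 7.61, 6.90 and 7.04 in eWAT and fell by 1.90 in 3T3-L1, by 1.59 in PMEF and by 0.83 in ES. Of 7 retinoic acid targets, Rarb among them, 4 were lower and 1 higher in 3T3-L1, 3 lower and 1 higher in PMEF, and 4 lower and 3 higher in ES adipocytes. Tgm2, the tissue transglutaminase, fell by 3.03 in 3T3-L1 and 1.28 in PMEF, and its fall of 0.25 in ES was lost without ES array 1 or 3 or eWAT array 1 or 3 (adjusted p = 0.0551 to 0.108). Aldh1a1, which makes retinoic acid, was 3.77-fold lower in 3T3-L1 (-1.91) and 1.93-fold higher in PMEF (0.95) than in eWAT.

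The lipid and vitamin sensors moved less. Ppard, the PPAR made in most cells, was at 8.83, 8.80 and 8.82 in 3T3-L1, at 8.30, 8.65 and 8.40 in eWAT, at 8.33, 8.28 and 8.24 in ES and at 8.23, 8.18 and 8.22 in PMEF. It was above tissue in 3T3-L1 (0.36, adjusted p = 0.00195) and below it in PMEF (-0.24, adjusted p = 0.0279), and the PMEF call was lost without eWAT array 2, the highest tissue array (-0.14, adjusted p = 0.116), and without PMEF array 2 or 3. Nr1h3, the LXR gene that senses oxysterols in fat and macrophages, was at 9.62, 9.68 and 9.62 in 3T3-L1 and 1.36-fold above eWAT (9.34, 9.07 and 9.20; 0.44, adjusted p = 0.000505). In PMEF and ES adipocytes it overlapped the tissue arrays, at -0.10 and -0.14. Vdr, the vitamin D receptor, which restrains adipocyte formation in culture, rose by 0.75 in 3T3-L1 and 0.84 in PMEF, and in ES it was at 0.23 (adjusted p = 0.109), a difference called without ES array 1 or eWAT array 3 (0.32 in both). Its values were low, from 5.20 to 5.57 in eWAT and from 6.07 to 6.40 in 3T3-L1 and PMEF. The bile acid receptor Nr1h4 and the xenobiotic receptor Nr1i3 were dim throughout, at 4.12 to 4.53 as group means.

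For comparison, Pparg itself was at -0.64, -0.93 and -0.17 in 3T3-L1, PMEF and ES, the last not called (adjusted p = 0.105), and Ppara, the PPAR of fatty acid burning, fell by 2.36 in 3T3-L1 and 0.50 in PMEF and rose by 0.92 in ES. The PMEF call of Ppara was lost without eWAT array 1 (-0.29, adjusted p = 0.102), PMEF array 2 (-0.40, adjusted p = 0.103) or PMEF array 3 (-0.50, adjusted p = 0.0571). Among 4 PPAR targets, 2 were higher in 3T3-L1, 1 was higher and 2 lower in PMEF, and 1 was higher and 2 lower in ES. Among 9 LXR targets, 3 were higher and 6 lower in 3T3-L1, where the receptor was highest, 3 higher and 4 lower in PMEF, and 3 higher and 3 lower in ES.

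The falls in 3T3-L1 included Smpdl3a, a secreted phosphodiesterase, at -5.79, the lipoprotein gene Apoe at -4.74 and the lipogenic factor Srebf1 at -2.10, while the phospholipid enzyme Lpcat3 rose by 1.02. Apoe and Smpdl3a are also made by macrophages, whose markers were high in eWAT. Against eWAT, the list median of the macrophage markers was -5.59 for ES, -5.43 for 3T3-L1 and -4.06 for PMEF. Apoe was at -0.94 for ES and -1.89 for PMEF adipocytes. Smpdl3a was at -2.31 for ES and -0.38 for PMEF adipocytes. The PMEF call of Smpdl3a was lost without PMEF array 2 (-0.29, adjusted p = 0.099) or eWAT array 1 (-0.36, adjusted p = 0.0558). The part of macrophages was not tested. On the side of oxysterol supply, Cyp27a1, which makes an LXR ligand, was lower in all cultures (-2.99, -2.82 and -2.88). Cyp7b1, which breaks such ligands down, was 11.9-fold and 14.3-fold higher in PMEF and ES than in eWAT (3.57 and 3.84). In 3T3-L1 it was at 0.16 (adjusted p = 0.258). That difference was called with arrays centred on their medians (0.37, adjusted p = 0.00923) and without 3T3-L1 array 1 (0.31, adjusted p = 0.0138). Over all 15 measured genes of ligand supply, 1 was higher and 9 lower in 3T3-L1, 5 higher and 3 lower in PMEF, and 4 higher and 8 lower in ES.

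The clock receptors are the repressors Nr1d1 and Nr1d2 (REV-ERB) and the activator Rora, which bind the same response elements. Nr1d1 was at 11.30, 11.12 and 10.87 in eWAT. In the cultures it was at 9.91, 9.94 and 9.83 in 3T3-L1, 9.92, 9.75 and 9.90 in PMEF and 9.93, 10.05 and 9.90 in ES, and no difference between cultures was called. With arrays centred on their medians, PMEF was lower than 3T3-L1 (-0.25, adjusted p = 0.0376). All tissue arrays were above all culture arrays, by 2.31-fold over 3T3-L1 (-1.21 ± 0.099, adjusted p = 1.71e-07), 2.36-fold over PMEF (-1.24) and 2.19-fold over ES (-1.13). Nr1d1 cycles with the time of day in tissue, and no source used here gives the time at which tissue or cultures were collected.

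Nr1d2, which cycles with Nr1d1 in most tissues, did not share its pattern. It rose in 3T3-L1 by 0.43 and in PMEF by 0.35, and in ES it was at -0.20 (adjusted p = 0.0572), a difference called under several settings, for instance without eWAT array 2 (-0.27, adjusted p = 0.0184). Rora was at 9.31, 9.30 and 9.30 in 3T3-L1 adipocytes, and at 9.08, 9.02 and 9.07 in ES, above all arrays of eWAT (8.47, 8.54 and 8.63) and PMEF (8.32, 8.46 and 8.42), with rises over eWAT of 0.75 in 3T3-L1 and 0.51 in ES. Among 4 genes driven through these elements, 2 were higher and 1 lower in 3T3-L1, 4 were lower in PMEF, and 1 was higher and 1 lower in ES. Arntl, the clock activator that REV-ERB represses, fell by 0.37 in 3T3-L1 and 0.97 in PMEF, and in ES it was at -0.17 (adjusted p = 0.183). The 3T3-L1 call was lost with arrays centred on their medians (-0.16, adjusted p = 0.157). Cry1 and Nfil3 rose by 0.88 and 0.83 in 3T3-L1 and fell by 0.48 and 0.42 in PMEF. The PMEF call of Nfil3 was lost without PMEF array 2 (-0.31, adjusted p = 0.141), eWAT array 2 (-0.33, adjusted p = 0.13) or eWAT array 3 (-0.29, adjusted p = 0.15). It was also lost where PMEF and eWAT were fitted alone (adjusted p = 0.0888).

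Several orphan receptors had their highest level in 3T3-L1 adipocytes. Nr2f6, a COUP-TF relative, was at 7.69, 7.73 and 7.76 in 3T3-L1, at 7.23, 7.14 and 7.16 in ES, at 6.75, 6.85 and 7.02 in PMEF and at 6.74, 6.60 and 6.67 in eWAT. The 3T3-L1 level was 2.08-fold above tissue (1.06 ± 0.077, adjusted p = 5.34e-08). Nr2c1, a testicular receptor whose protein represses at direct repeats, rose by 0.87 in 3T3-L1 (8.51 to 8.60, against 7.57 to 7.73 in eWAT), by 0.29 in PMEF and by 0.25 in ES. Its relative Nr2c2 rose by 0.27 in 3T3-L1 and was at -0.04 in PMEF and -0.09 in ES, neither called. The smaller rises were less secure, since those of Nr2f6 in PMEF (0.21), Nr2c1 in ES and PMEF and Nr2c2 in 3T3-L1 were each lost under at least 1 setting.

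**Figure D3:**
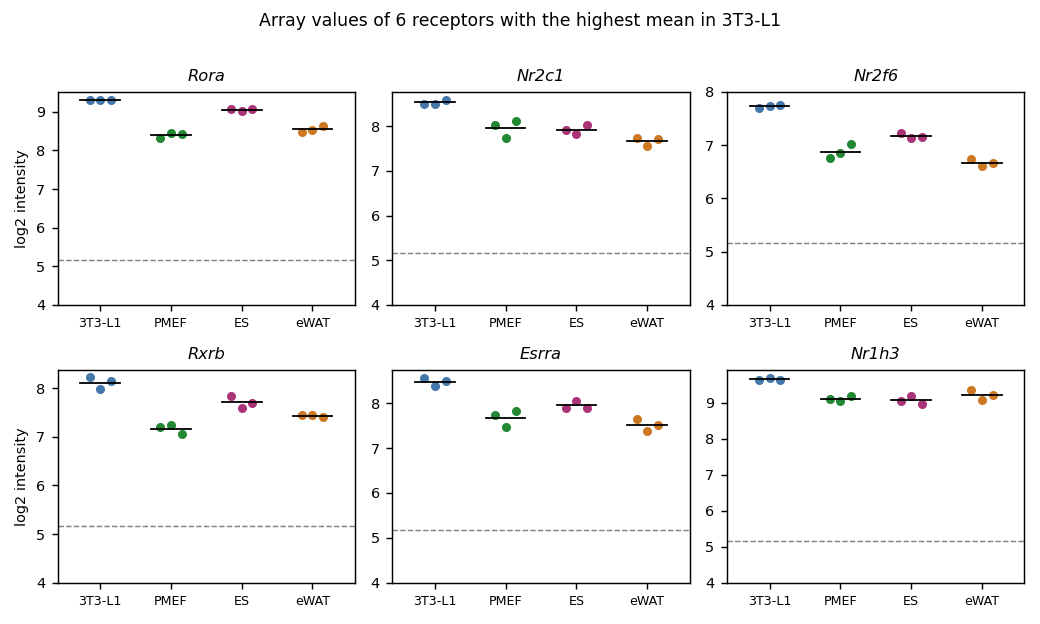
Log2 intensity (y axis) of Rora, Nr2c1, Nr2f6, Rxrb, Esrra and Nr1h3 in each of the 12 arrays by group, with group means as lines (n = 3) and the dim level of 5.17 dashed. In each panel the 3T3-L1 arrays are the highest, for example 7.69 to 7.76 for Nr2f6 against 6.60 to 6.74 in eWAT.

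Esrra, the oestrogen-related receptor that works with Ppargc1a on mitochondrial genes, was at 8.57, 8.38 and 8.49 in 3T3-L1, above all arrays of ES (7.90, 8.05 and 7.90), PMEF (7.73, 7.47 and 7.83) and eWAT (7.65, 7.39 and 7.52). It was 1.95-fold above tissue in 3T3-L1 (0.96 ± 0.10, adjusted p = 1.88e-06) and 1.35-fold above it in ES. Its relative Esrrg lay the other way, with group means of 5.61 to 5.72 in the cultures and 5.97 in eWAT. The ES call of Esrrg was lost under several settings, for instance without ES array 2 (-0.25, adjusted p = 0.0627). Its 3T3-L1 call was lost with arrays centred on their medians (-0.15, adjusted p = 0.141). The partner coactivator Ppargc1a was at 10.37, 10.34 and 10.39 in 3T3-L1 against 7.85, 8.02 and 7.70 in eWAT, a 5.69-fold difference (2.51 ± 0.086, adjusted p = 2.66e-11), and it also rose in ES (1.09) and PMEF (0.64). Of 3 measured targets of these receptors, 3 were higher in 3T3-L1, 1 was lower in PMEF, and 1 was higher and 1 lower in ES, with list medians of 0.46, 0.15 and 0.04.

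The COUP-TF genes Nr2f1 and Nr2f2, which pattern neural and mesodermal tissue in the embryo, split by culture. Nr2f1 was at 6.08, 6.43 and 6.24 in ES adipocytes, above all arrays of PMEF (5.26, 5.37 and 5.29), 3T3-L1 (5.10, 5.30 and 5.24) and eWAT (4.75, 4.82 and 5.06), the last dim on average. The ES level was 2.60-fold above tissue (1.38 ± 0.10, adjusted p = 1.08e-07), 2.06-fold above 3T3-L1 and 1.93-fold above PMEF. The mean of 4 neural markers was also highest in ES cultures, at 5.42 to 6.09 against 4.35 to 4.94 in the other groups, with 2 of the 4 dim in ES (Tubb3 and Elavl4); their part in the Nr2f1 difference was not tested. Nr2f2 was highest in eWAT, at 7.64, 7.76 and 7.67, and was 6.96 in all 3 arrays of 3T3-L1, a difference of -0.73 (adjusted p = 1.13e-06), with -0.57 in PMEF and -0.15 in ES (adjusted p = 0.101). Nr2f2 is also a gene of venous endothelium, and the endothelial markers were high in eWAT alone; their part was not tested.

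Nr5a2, a receptor of liver and ovary, was dim in all cultures (4.35 to 4.69) and just above the dim level in eWAT (5.43, 5.06 and 5.36), with differences of -0.83, -0.68 and -0.73. Hnf4a was low and level, with group means of 5.82 to 6.01 and no call in any comparison. Nr0b1 and Nr0b2, which lack a DNA-binding domain and repress other receptors, were dim in every group, so that the call of Nr0b1 in PMEF (0.30) joined 2 dim groups, as did those of Nr1i3 (0.25) and Esr2 (0.29) there, which were also lost under several settings.

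The NR4A receptors are immediate early genes, transcribed within minutes of a stimulus, and they act without a known ligand. Nr4a2 and Nr4a3 were lower in every culture than in tissue, and Nr4a1 was lower in PMEF and ES adipocytes. Their promoters are shown because the 3 genes are classical targets of CREB, which binds the element TGACGTCA or its first letters TGACG. Below are the 250 bases before a RefSeq start site of each gene (build GRCm38.p6). They are Nr4a1 at chr15:101266596-101266845 on the plus strand, Nr4a2 at chr2:57124004-57124253 on the minus strand and Nr4a3 at chr4:48045055-48045304 on the plus strand. The annotated gene begins at 101253902 for Nr4a1 and at 48045078 for Nr4a3. The Nr4a1 window and most of the Nr4a3 window thus lie inside the gene, before a later start site. Sequences are written 5′ to 3′ along the gene, with TGACG on either strand (read as TGACG or CGTCA) in capitals.
Nr4a1: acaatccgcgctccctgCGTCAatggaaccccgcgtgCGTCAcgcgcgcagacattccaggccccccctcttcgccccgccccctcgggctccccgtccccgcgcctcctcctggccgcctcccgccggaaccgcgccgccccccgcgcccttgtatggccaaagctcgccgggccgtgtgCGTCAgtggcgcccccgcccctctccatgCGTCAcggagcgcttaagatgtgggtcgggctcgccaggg
Nr4a2: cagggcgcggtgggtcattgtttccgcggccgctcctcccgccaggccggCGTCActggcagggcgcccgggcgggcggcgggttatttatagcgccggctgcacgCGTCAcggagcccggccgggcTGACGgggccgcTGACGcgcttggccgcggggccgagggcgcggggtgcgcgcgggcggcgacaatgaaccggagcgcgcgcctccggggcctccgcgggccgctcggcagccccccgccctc
Nr4a3: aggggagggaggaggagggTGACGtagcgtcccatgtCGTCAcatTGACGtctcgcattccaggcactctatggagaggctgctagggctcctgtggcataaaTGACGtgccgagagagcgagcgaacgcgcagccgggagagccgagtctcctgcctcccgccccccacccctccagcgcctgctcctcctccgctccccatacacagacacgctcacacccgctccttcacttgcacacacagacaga

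Each of the 3 windows held 4 copies of TGACG and none held the full TGACGTCA. Of 32536 distinct RefSeq windows of this length, 17.9% held TGACG at least once, 1.56% held TGACGTCA and 0.138% held 4 or more copies of TGACG, a count set after these windows were seen. Of 47 windows found for 32 of the 34 receptors, 9 held TGACG (19.1%). Thra and Nr3c1 had no entry. A match describes the letters and shows no binding.

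Nr4a1 was at 7.63, 7.60 and 7.55 in 3T3-L1, at 7.10, 7.76 and 7.26 in eWAT, at 6.46, 6.59 and 6.54 in ES and at 6.37, 6.31 and 6.39 in PMEF. PMEF and ES arrays were below all others, by -1.01 ± 0.13 (adjusted p = 1.68e-05) and -0.84 (adjusted p = 8.49e-05) against eWAT, while 3T3-L1 overlapped tissue (0.23, adjusted p = 0.16). Nr4a2 was at 7.38, 7.75 and 7.24 in eWAT, at 7.19, 7.05 and 7.09 in PMEF, at 6.82, 6.76 and 6.86 in 3T3-L1 adipocytes, and at 6.12, 6.16 and 6.27 in ES. Here ES was the lowest (-1.27 ± 0.11, adjusted p = 3.64e-07), followed by 3T3-L1 (-0.64) and PMEF (-0.35, adjusted p = 0.0172). Nr4a3 was at 5.21, 6.35 and 6.14 in eWAT and dim in all cultures, with arrays of 4.34 to 4.57 in 3T3-L1 and PMEF and 4.76 to 4.95 in ES. Its differences from tissue were -1.48 ± 0.21 in 3T3-L1 (adjusted p = 3.3e-05), -1.40 in PMEF and -1.07 in ES. That standard error pools all 4 groups, whose standard deviations were 0.606 in eWAT and 0.0745 to 0.102 in the cultures. Among the dim cultures, ES was above 3T3-L1 (0.41) and PMEF (0.33), not called in the main fit. Both were called in some fits, for instance limma on the 2 groups alone (adjusted p = 0.00215 and 0.00953).

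Tissue arrays spread more than culture arrays for these genes, and array 2 was the highest of the eWAT arrays for all 3. In that array Fosb was at 9.02 and Egr1 at 8.93, against 6.20 and 6.41 and against 8.17 and 7.91 in the other tissue arrays, genes chosen after their values were seen. Of an added list of 7 immediate early genes, 3 were higher and 1 lower in 3T3-L1 than in eWAT (median 0.29). In PMEF 3 were lower (median -0.47), and in ES 3 were higher and 2 lower (median 0.12). Without eWAT array 2 these medians were 0.38, -0.19 and 0.19, and without eWAT array 1 they were 0.41, -0.57 and 0.03. Without eWAT array 2, Nr4a1 was higher in 3T3-L1 than in tissue (0.42, adjusted p = 0.000562), the PMEF difference of Nr4a2 was no longer called (-0.20, adjusted p = 0.0627), and the Nr4a3 differences were -1.26, -1.17 and -0.84, each still called. The part of handling or of a stimulus in the tissue values was not tested.

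**Figure D4:**
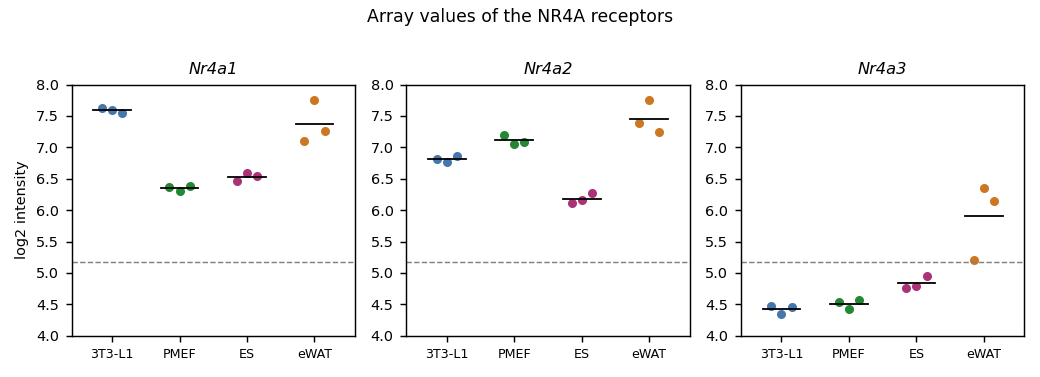
Log2 intensity (y axis) of Nr4a1, Nr4a2 and Nr4a3 in each of the 12 arrays by group, with group means as lines (n = 3) and the dim level of 5.17 dashed. The eWAT arrays spread from 5.21 to 6.35 for Nr4a3, the 3T3-L1 arrays of Nr4a1 lie at 7.55 to 7.63 near the tissue arrays, and array 2 is the highest eWAT array in each panel.

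Set against each other, the cultures parted most clearly in Thrb, Esr1 and Nr4a1, each of which set 3T3-L1 apart from both PMEF and ES adipocytes by at least 2-fold. Between PMEF and 3T3-L1 adipocytes 18 receptors were called, 8 higher in PMEF and 10 lower, where 50.1% of all genes were called, 22.3% higher and 27.8% lower. Between ES and 3T3-L1 22 were called, 9 higher in ES and 13 lower, with 43.4% of all genes called, 20.4% higher and 23% lower. Between ES and PMEF 13 were called, 8 higher in ES and 5 lower, with 42.6% of all genes called, 23.6% higher and 19% lower. At least 2-fold differences numbered 3 for PMEF against 3T3-L1 (12.5% of all genes), Thrb, Esr1 and Nr4a1, and 4 for ES against 3T3-L1 (8.14%), which were these and Nr2f1. Between ES and PMEF adipocytes no receptor reached 2-fold, where 6.71% of all genes did, and the widest were Nr2f1 at 0.95 and Nr4a2 at -0.93.

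The median absolute difference of the receptors between ES and PMEF was 0.13, against 0.21 over all genes, while for ES against 3T3-L1 it was 0.40 against 0.20. With arrays centred on their medians, 3T3-L1 against PMEF gave 4 receptors higher and 14 lower in PMEF, and 23.6% of all calls were higher in place of 44.6%. For ES against 3T3-L1 the same centring gave 6 higher and 14 lower, with 21.7% of all calls higher in place of 47.1%, and centring on the reference genes gave 60.6%. For ES against PMEF the reference genes moved that share from 55.4% to 65.9%, with 9 receptors higher and 5 lower.

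Receptors act through coregulators, of which 17 of 19 listed genes were measured. In 3T3-L1 adipocytes 5 were higher and 6 lower than in eWAT, in PMEF 3 were higher and 11 lower, and in ES 5 were higher and 9 lower, with list medians of -0.13, -0.33 and -0.19. Besides Ppargc1a, its relative Ppargc1b rose by 0.90 in 3T3-L1 and by 1.29 in ES, and was at -0.18 in PMEF (adjusted p = 0.386). Nrip1, a corepressor of energy use in fat, fell in all 3, by 0.56, 0.97 and 0.55. The coactivator Ncoa1 fell by 0.84 in PMEF and by 0.19 in ES (adjusted p = 0.047), the latter lost under 13 of the settings tried, and Ncoa3 fell by 1.06 in ES and by 0.42 in PMEF. Of 11 other receptors measured beside the 33, 1 was higher and 5 lower in 3T3-L1, 1 higher and 4 lower in PMEF, and 2 higher and 2 lower in ES, and Nr6a1, a germ cell receptor, rose by 1.03 in 3T3-L1.

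**Figure D5:**
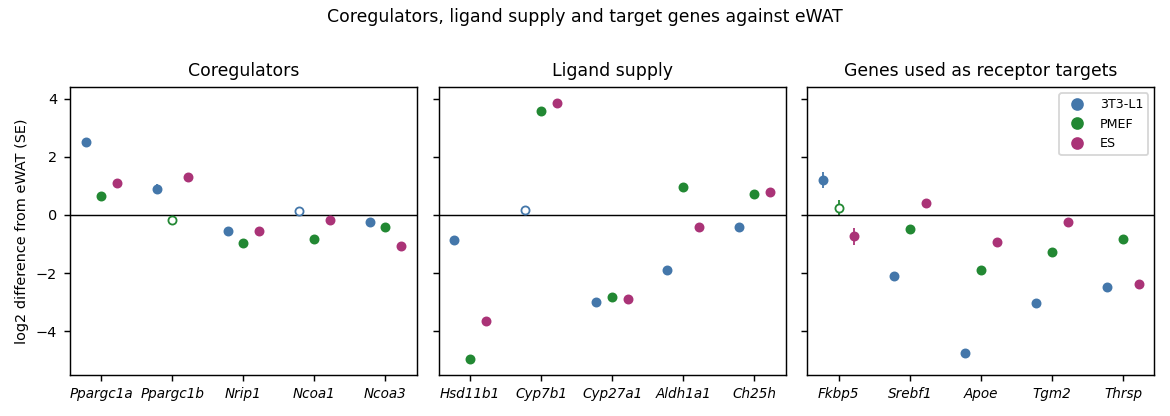
Log2 difference from eWAT (y axis, log2 units, with the standard error as a bar, n = 3 arrays per group) of coregulators, ligand-supply genes and genes used as receptor targets in 3T3-L1, PMEF and ES adipocytes, filled where called and open where not. Ppargc1a is highest in 3T3-L1 at 2.51, Hsd11b1 lowest in PMEF at -4.97, and Cyp7b1 stands at 3.57 and 3.84 in PMEF and ES against 0.16 in 3T3-L1.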

How the data were processed

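Transcript levels had been measured on Affymetrix arrays in 12 samples, and the deposited table holds log2 intensities of 35556 probe sets that the authors had normalized. No source used here names the software or method of that normalization, and the log base was read from the range of the values, 1.11 to 13.48. The values were used as deposited.

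Probe sets with exactly 1 gene symbol (21789) were kept, and those with several (1621) or none (12146) left out. For a gene with several probe sets the one with the highest mean stood, which gave 19938 genes. limma 3.58.1 (R 4.3.3) estimated the means of the 4 groups from the 12 arrays together (8 residual and 4.88 prior degrees of freedom), and the 6 contrasts were adjusted by Benjamini-Hochberg over all genes. A call needed an adjusted p under 0.05. No dim gene was filtered out. Errors are standard errors, and the number of arrays limits their precision. On simulated data for 3T3-L1 against eWAT, 50 genes at each size, the fit called 6%, 66%, 98% and 100% at log2 differences of 0.25, 0.5, 1 and 2. Only these planted genes differed in the simulation, whereas 53.3% of all genes were called in the data. The adjustment was therefore stricter in the simulation, and these shares are not detection rates for the data.

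Replicate numbers were not used to pair the arrays in the main fit. Deviations of same-numbered arrays correlated at -0.14 to 0.11 over 18 pairs, which cannot exclude shared handling. Promoters came from a RefSeq table of GRCm38.p6 and were searched on both strands. Named genes were all receptors listed, Pparg and Rxra, the 3 largest rises and falls of each list per comparison, and list markers, and others are said to be chosen after their values were seen. The receptors and lists were chosen with earlier results of these data known. Alternatives were quantile normalization, centring on medians or on reference genes, leaving out the dimmest genes, the mean of probe sets, the 2 groups alone, a replicate block, array weights, a trended robust variance, and each array left out.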

Additional observations from a re-analysis of the deposited data

Results flagged for a closer look

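Rxrb and Ppard lay on opposite sides of tissue in different cultures, and the difference between those cultures was itself called. Rxrb was above eWAT in 3T3-L1 adipocytes (0.68) and below it in PMEF adipocytes (-0.27), and PMEF minus 3T3-L1 was -0.95 ± 0.085 (limma, n = 3 arrays per group, adjusted p = 4.23e-07). It was also above eWAT in ES adipocytes (0.28), and ES minus PMEF was 0.55 ± 0.085 (adjusted p = 0.000125). Ppard was above eWAT in 3T3-L1 (0.36) and below it in PMEF adipocytes (-0.24), and PMEF minus 3T3-L1 was -0.61 ± 0.083 (adjusted p = 2.78e-05). For both genes the PMEF side was weaker than the 3T3-L1 side. Its call against eWAT was lost without PMEF array 3 (Rxrb at -0.22, adjusted p = 0.0766, Ppard at -0.25, adjusted p = 0.055). The ES side of Rxrb was weak as well, since its call was lost without ES array 1 (0.22, adjusted p = 0.0727).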

How the results depend on the processing

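Of the 198 differences tested over the 33 receptors and 6 comparisons, 139 kept call and direction under every alternative that covered them. Leaving out the dimmest genes covered 156 of them, and averaging over probe sets changed none of the calls, each receptor having 1 probe set. The single reversal was Rarg between PMEF and 3T3-L1, at -0.01 with arrays centred on their medians, a setting that also gave 4 receptors higher and 7 at least 2-fold different in PMEF against 3T3-L1. Centring on the reference genes gave 6 receptors higher in PMEF than eWAT, 1 at least 2-fold different between ES and PMEF and 1 set apart in ES adipocytes. Leaving out each array in turn gave 6 to 9 receptors higher in PMEF than eWAT, the lowest without PMEF array 3, and 0 to 1 at least 2-fold different between ES and PMEF and set apart in ES, the 1 without ES array 1. The cause of these changes was not tested. With the replicate number as a block, 6 of the 198 calls changed (5 lost, 1 gained), and the receptors higher in PMEF than eWAT numbered 7 in place of 10. Small differences and those near background are limited by 3 arrays per group and by the lack of detection calls.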
